A study of Mus musculus with 5 samples.

Results

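The 8 genes described here, Ccng1, Slc7a1, Cd320, Ndrg3, P4ha1, Adam10, Adam17 and Srf, are reported in the literature as targets of the microRNA miR-122 and lie outside core metabolism. They were chosen by name and matched by symbol to their Ensembl identifiers, and all 8 were found among the 35275 genes of the table. Messenger RNA of the gastrocnemius, a large calf muscle made mostly of fast fibres, was sequenced. The donors were female mice of the immunodeficient NSG strain at week 12 of age, and their genotype is given as wild type. All 5 samples belong to 1 group, whose mice had received extracellular vesicles from cells named MCF-10A/miR122 through the tail vein, 10 injections in all at 2 per week for 5 weeks with about 10 µg each, and the muscle was taken 2 days after the last. MCF-10A is a non-tumorigenic human breast epithelial line, and extracellular vesicles are membrane particles that carry RNA and protein between cells. NSG mice lack mature T, B and natural killer cells, so the muscle is that of a host without those cells. No untreated library was analysed here, so the levels below show neither repression nor its absence. The labels number the samples 1 to 5 without saying that each is a separate animal, and every spread is the spread between these samples, which may be technical.

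A microRNA guides an Argonaute protein to messenger RNAs that pair with its seed, mostly in the 3' untranslated region, and lowers their stability or their translation. miR-122 is the most abundant microRNA of liver and is scarce in other tissues. In liver and in breast cancer models its reported targets include the cell cycle regulator cyclin G1, the arginine transporter CAT1 and enzymes of glucose use. Libraries selected on poly-A tails do not measure a mature microRNA, so miR-122 itself has no value here.

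The promoters of the most abundant pair among the 8 genes are shown because each holds a motif of the regulator the gene is best known for. SRF, the serum response factor, binds the CArG box and is known to act on its own gene, and CCNG1 is a classical target of the tumour suppressor p53. RefSeq gives windows of 300 bases, 250 before to 50 after a start, for all 8 genes on GRCm38.p6. The Srf window (chr17:46556113-46556412, minus strand) holds 2 CArG boxes, at 82 to 73 and at 62 to 53 bases before the start, and the Ccng1 window (chr11:40755237-40755536, minus strand) holds 1 match to the p53 consensus decamer, at 185 to 176 bases before the start. Both sequences are printed 5' to 3' with these matches in capitals.
Srf: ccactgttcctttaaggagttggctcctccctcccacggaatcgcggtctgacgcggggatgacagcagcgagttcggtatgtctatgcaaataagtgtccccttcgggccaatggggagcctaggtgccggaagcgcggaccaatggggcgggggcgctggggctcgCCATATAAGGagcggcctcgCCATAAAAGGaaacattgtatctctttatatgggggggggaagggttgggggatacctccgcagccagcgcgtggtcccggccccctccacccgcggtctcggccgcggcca
Ccng1: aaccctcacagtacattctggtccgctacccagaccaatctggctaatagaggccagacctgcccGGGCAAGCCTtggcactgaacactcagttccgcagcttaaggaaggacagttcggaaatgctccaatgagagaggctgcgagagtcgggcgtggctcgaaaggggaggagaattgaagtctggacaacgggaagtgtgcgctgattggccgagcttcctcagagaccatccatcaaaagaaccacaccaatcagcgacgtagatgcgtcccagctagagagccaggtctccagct
Both strands were searched, and a match that reads the same on both was counted once. A CArG box was found in 1.63% of 32851 windows of the same length, and 2 or more in 6 windows. The p53 decamer was found in 8.36% of the windows. Of the 8 genes, Srf alone held a CArG box, while Ccng1 and Cd320 held a p53 decamer. These matches describe the letters of the windows and are not shown binding sites.

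The 8 genes covered a wide range of levels, from 276 to 1.02 FPKM on average, where FPKM is a read number scaled to the length of the gene and to the total reads of the library. Ccng1 made up 79.0% of their summed mean level. All 8 reached an average of 1 FPKM, and 7 of them reached it in every library, the exception being Slc7a1. The order of mean levels was Ccng1, Srf, P4ha1, Ndrg3, Cd320, Adam17, Adam10 and Slc7a1. Of the 28 pairs of these genes, 25 stood in the same order in all 5 libraries, and the 3 that did not were the pairs among Cd320, Adam17 and Adam10. The mean difference on the log2(FPKM + 1) scale was 0.00 ± 0.28 for Cd320 over Adam17, 0.08 ± 0.26 for Cd320 over Adam10 and 0.08 ± 0.09 for Adam17 over Adam10 (SD, n = 5), so that these neighbours did not differ beyond their spread. For each of the 25 ordered pairs, flipping the signs of the 5 differences in every possible way (exact permutation test, two-sided) gave p = 0.0625, or 0.0700 when adjusted for all 28 pairs. With 5 libraries no lower p can be reached, so none could pass 0.05.

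**Figure D1:**
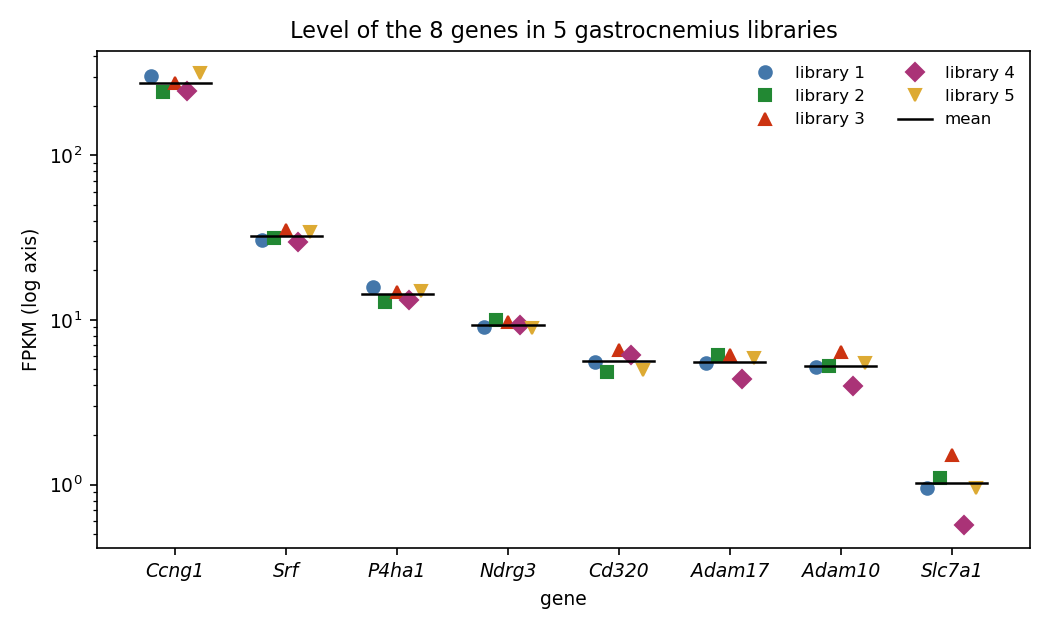
FPKM of each of the 8 genes (log axis) in the 5 libraries, with a symbol for each library and a bar at the mean. The levels step down from Ccng1 at 276 FPKM on average to Slc7a1 at 1.02 FPKM, and the points of Cd320, Adam17 and Adam10 lie at the same height.

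The libraries held 16674504 to 25407988 reads, and reads per gene could be recovered from the steps of the FPKM values. In bulk muscle, fewer cells of a type and less RNA per cell cannot be told apart. Muscle markers fitted the labelled tissue, with 54914 to 71812 FPKM summed over Acta1, Myh4, Tnnt3 and Atp2a1, while the markers of T cells summed to at most 0.598 FPKM and those of hepatocytes to at most 1.17 FPKM. Library 3 stood apart in markers of other cells and of regenerating fibres. The 6 macrophage markers, all highest in library 3, summed to 296 FPKM there and 69.3 to 93.8 elsewhere. The 4 markers of regenerating fibres, also all highest there, summed to 98.9 against 9.88 to 17.8 FPKM, and 5 fibroblast and progenitor markers (3 of them highest there) to 1079 against 592 to 786. Adipocyte markers (4 of 4 highest there) summed to 261 against 36.7 to 131 FPKM, red cell markers (3 of 3) to 889 against 308 to 463 and Schwann cell markers (3 of 4) to 129 against 57.4 to 87.4. Library 2 stood apart in slow fibre markers, at 2641 against 829 to 1113 FPKM. The 4 endothelial markers ranged from 59.1 to 79.7 FPKM. Against a scaling by the median of gene ratios, all genes together lay lower by 0.16 (log2) in library 4 and by 0.10 in library 5. They lay higher by 0.10 in libraries 2 and 3 and by 0.06 in library 1. FPKM leaves these shifts in place.

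Ccng1 encodes cyclin G1, an atypical cyclin that recruits protein phosphatase 2A to the p53 regulator MDM2. It (ENSMUSG00000020326, chromosome 11, 40748552 to 40755311, minus strand) was at 302, 243, 275, 245 and 314 FPKM in libraries 1 to 5, a mean of 276 ± 32.4 (SD, n = 5). Libraries 1 and 5 were high and libraries 2 and 4 low, with library 3 at the mean. The gene ranked 190th of all genes by level, and its 15793 to 27997 reads per library leave a counting error of only 0.691%, against a coefficient of variation (CV, the SD over the mean) of 11.8%. Under median-of-ratios scaling library 5 was still highest (335 FPKM) and library 2 still lowest (227 FPKM), but library 4 moved to 273 FPKM, above library 3. Its relative Ccng2, the other cyclin G gene, was at 5.34, 6.12, 4.402, 4.69 and 3.97 FPKM. Ccng1 exceeded it in every library by 5.10 to 5.98 on the log2(FPKM + 1) scale, the difference being largest in library 5 and smallest in library 2, where the genes lay at opposite ends of their ranges.

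Of 17 listed genes that work with cyclin G1 or respond to p53, 16 were at 1 FPKM or more. Of these, 7 were highest in library 3, near the 37.4% of all genes. In library 5, where Ccng1 was highest, 1 of the 16 was highest and 7 were lowest, against 7.68% and 24.9% of all genes, and under median-of-ratios scaling 4 were highest and 4 lowest, against 18.8% and 13.8%. Cdkn1a, the cell cycle inhibitor p21, was at 14.5, 26.8, 76.7, 36.6 and 17.2 FPKM, lowest in the libraries with the most Ccng1. Phlda3, a p53-induced inhibitor of Akt, reached 67.4 FPKM in library 3 and lay between 39.7 and 46.5 in the others. The phosphatase subunit gene Ppp2r5a was at 31.8 ± 3.79 FPKM. In these 3 genes library 3 was highest, as were the macrophage and regenerating fibre markers, whose part in these levels was not tested.

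Srf encodes the transcription factor that drives actin and other contractile genes together with the cofactors of the MRTF family, and immediate early genes together with the ETS factors of the ternary complex. It (ENSMUSG00000015605, chromosome 17, 46548329 to 46556175, minus strand) was at 30.4, 31.3, 35.1, 29.8 and 34.2 FPKM, with a mean of 32.2 ± 2.34 (SD, n = 5). Libraries 3 and 5 were slightly above the other libraries, and the highest was 1.18 times the lowest. With 2375 to 3554 reads the counting error was 1.88% against a CV of 7.29%, so the spread was small but above counting error. Under median-of-ratios scaling library 5 became highest and library 1 lowest.

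Srf exceeded its cofactor Mrtfa (listed under the older symbol Mkl1) in every library, by 1.28 to 1.68 on the log2(FPKM + 1) scale. Mrtfa was at 12.0, 11.5, 11.9, 9.70 and 9.99 FPKM, lower in the libraries 4 and 5 than in the others, a difference that closed under median-of-ratios scaling, where its CV fell from 9.89% to 3.004%. Of the 9 listed cofactors, 8 reached 1 FPKM, and the exception was Myocd, the cofactor of heart and smooth muscle. Abra, a muscle activator of MRTF signalling, was the most abundant at 106 ± 24.7 FPKM, with its highest level in library 2 (142 FPKM), and the ETS factor Elk4 was at 5.91 ± 0.411.

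Most targets of SRF had a larger spread than Srf itself, and so did most genes. Only 8.08% of the genes at 1 FPKM or more had a smaller CV than Srf. All 15 listed targets reached 1 FPKM, with a median CV of 33.6%, against 7.29% for Srf and a median of 16.3% over all 10710 genes at that level. Acta1, the skeletal muscle actin, had the smallest CV of them at 32368 ± 1983 FPKM, a CV of 6.13% that became 14.5% under median-of-ratios scaling. Tpm1, a tropomyosin, was at 4692, 2782, 3199, 5410 and 4685 FPKM, low in libraries 2 and 3, the first of which also had the most slow fibre markers; the part of fibre type in this was not tested. Actb, the actin of non-muscle cells, reached 379 FPKM in library 3 and 169 to 238 in the others, and 7 of the 15 targets were highest in that library, against 37.4% of all genes. A CArG box was found in 4 of the 11 targets with a window searched, namely Acta1, Actc1, Actg1 and Vcl. Windows on chromosome 18, where the target Egr1 lies, were not searched, so its promoter was not examined.

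P4ha1 encodes the catalytic subunit of collagen prolyl 4-hydroxylase, which forms a tetramer with the disulfide isomerase P4hb and makes the collagen triple helix stable. It (ENSMUSG00000019916, chromosome 10, 59323296 to 59373304, plus strand) was at 15.8, 12.9, 14.8, 13.2 and 15.02 FPKM, a mean of 14.3 ± 1.25 (SD, n = 5). In FPKM libraries 1, 3 and 5 were above libraries 2 and 4, as for Ccng1, but under median-of-ratios scaling library 4 (14.7 FPKM) moved above library 3 (13.8 FPKM) for P4ha1 too. The difference between Ccng1 and P4ha1 had an SD of 0.07 between libraries on the log2(FPKM + 1) scale, and the differences of Ccng1 to the other 6 genes had SDs of 0.15 to 0.26. Such a small SD was not particular to this pair, being 0.07 also for Adam10 and Slc7a1 and 0.09 for Adam17 and Adam10. With 966 to 1543 reads the counting error of P4ha1 was 2.83% against a CV of 8.74%.

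P4ha1 stood only slightly above its alternative subunit P4ha2, which was at 11.6, 12.6, 11.6, 11.5 and 12.7 FPKM. The difference was positive in all 5 libraries, from 0.03 in library 2 to 0.42 in library 1 on the log2(FPKM + 1) scale. The third subunit, P4ha3, stayed below 1 FPKM on average. Its highest level was in library 3, at 0.599 FPKM (24 reads) against 0.0175 to 0.0983 elsewhere. The common partner P4hb was at 65.2, 73.2, 115, 72.3 and 67.5 FPKM, and the collagen chaperone Serpinh1 at 40.6, 40.2, 82.2, 37.4 and 49.0 FPKM, both highest in library 3. Of 13 genes of collagen hydroxylation at 1 FPKM or more, P4hb and Serpinh1 included, 10 were highest in library 3 (10 under median-of-ratios scaling too), while P4ha1 and P4ha2 were not. The share of all genes highest in library 3 was 37.4%, or 27.0% under that scaling. Of the 5 fibroblast markers the collagens Col1a1 and Col3a1 and Ly6a were highest in that library, and Pdgfra and Dcn in library 2, with Dcn at 202 FPKM in library 3 against 196 to 300.3 elsewhere. The part of fibroblasts in these levels was not tested. Library 3 stood at 1.65 times the mean of the other libraries for P4hb, at 1.97 times for Serpinh1 and at 1.21 times for the lysyl hydroxylase Plod1, against 1.04 times for P4ha1.

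Adam10 and Adam17 encode the main membrane sheddases, metalloproteases that cut the extracellular part off Notch receptors, the amyloid precursor protein, tumour necrosis factor and its receptors. Adam10 (ENSMUSG00000054693, chromosome 9, 70678997 to 70780229, plus strand) was at 5.20, 5.25, 6.38, 3.98 and 5.49 FPKM, a mean of 5.26 ± 0.859 (SD, n = 5). Adam17 (ENSMUSG00000052593, chromosome 12, 21323509 to 21373632, minus strand) was at 5.48, 6.12, 6.11, 4.37 and 5.88 FPKM, a mean of 5.59 ± 0.732. Library 4 was lowest for both genes and remained so under median-of-ratios scaling, at 4.44 FPKM against 4.91 to 5.98 for Adam10 and at 4.87 against 5.25 to 6.29 for Adam17. Without library 4 the CV went from 16.3% to 9.88% for Adam10 and from 13.1% to 5.10% for Adam17. Adam10 lay below Adam17 in 4 of 5 libraries, with a difference of -0.08 ± 0.09 on the log2(FPKM + 1) scale (p = 0.125 in the exact permutation test, also 0.125 adjusted over 7 family pairs). The end of Adam17 overlaps Iah1 on the other strand, itself at 2.73 FPKM, and with the strand setting not given reads from the overlap cannot be told apart.

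Inhibitors, regulators and substrates of these proteases were also measured. Timp1, which encodes an inhibitor of metalloproteases, was at 1.88, 3.42, 34.4, 1.62 and 2.41 FPKM, 14.8 times as high in library 3 as the mean of the others; it is among the 3 most abundant regulators, and so named by rule, only through library 3. Timp3, the main physiological inhibitor of ADAM17, was at 17.6, 18.2, 17.0, 10.7 and 20.1 FPKM and was lowest in library 4, as were Adam10 and Adam17. Of 9 regulators at 1 FPKM or more, 5 were lowest in library 4 and 4 highest in library 3 in FPKM, and Tspan17, a tetraspanin that escorts ADAM10, was at 16.2 ± 0.905 FPKM. Of 12 substrates at that level, 10 were lowest in library 4 and 7 highest in library 3, against 38.0% and 37.4% of all genes. Under median-of-ratios scaling 5 of the 12 substrates and 2 of the 9 regulators were lowest in library 4, against 18.6% of all genes. App was at 73.3, 95.1, 97.8, 62.2 and 67.5 FPKM, the receptor Tnfrsf1a at 24.8 FPKM in library 3 against 11.6 to 17.2, and Notch3 at 5.92 ± 1.02 FPKM. Among other ADAM genes, Adam9 was the most abundant at 17.5 ± 2.18 FPKM, Adam15 was at 11.6 FPKM in library 3 against 5.44 to 7.03, and Adam19 was at 1.16 ± 0.404. Adam8 and Adam12, known from white blood cells and regenerating muscle, stayed below 1 FPKM on average. Both were highest in library 3, Adam8 at 1.41 FPKM against 0.143 to 0.332 and Adam12 at 0.555 against 0.0284 to 0.105.

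Cd320 encodes the receptor that takes vitamin B12 (cobalamin) bound to transcobalamin, the product of Tcn2, into cells. It (ENSMUSG00000002308, chromosome 17, 33843091 to 33849774, plus strand) was at 5.55, 4.81, 6.57, 6.16 and 4.97 FPKM, a mean of 5.61 ± 0.753 (SD, n = 5). Libraries 3 and 4 were above the others, and in FPKM this was the only one of the 8 genes with library 4 above its mean, while under median-of-ratios scaling library 4 was also above the mean for Srf, P4ha1 and Ndrg3. The gene had 197 to 324 reads per library, a counting error of 6.15% against a CV of 13.4%. Tcn2 was at 13.0, 14.3, 18.7, 13.8 and 11.3 FPKM, and exceeded Cd320 in every library by 1.05 to 1.398 on the log2(FPKM + 1) scale.

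All 13 listed genes of cobalamin uptake and use reached 1 FPKM. In FPKM 6 of them were highest in library 1, where 21.2% of all genes were highest, and 3 (Tcn2, Abcd4 and Mtr) in library 3, as Cd320 was. In library 3 6 were lowest, against 17.1% of all genes, and 8 under median-of-ratios scaling, against 28.6%. Mmadhc, which hands cobalamin to both of its enzymes, was at 73.4, 68.9, 60.4, 66.9 and 64.4 FPKM. Pccb, a subunit of propionyl-CoA carboxylase, was at 45.3 ± 2.69 FPKM. Mcee, the next enzyme of that pathway, was at 34.7, 40.9, 21.2, 38.6 and 34.1 FPKM, lowest in library 3.

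Ndrg3 belongs to the N-myc downstream-regulated family, and its protein is known to accumulate in hypoxia when lactate is made. It (ENSMUSG00000027634, chromosome 2, 156927345 to 156992056, minus strand) was at 9.02, 9.95, 9.67, 9.27 and 8.95 FPKM, a mean of 9.37 ± 0.429 (SD, n = 5). It had the smallest CV of the 8 genes, 4.58%, close to its counting error of 3.52%, and only 1.78% of the genes at 1 FPKM or more had a smaller CV. Under median-of-ratios scaling its CV was 6.74%, still the smallest of the 8 but less close to the counting error. Ndrg2, the muscle member of the family, was at 751, 879, 576, 771 and 750 FPKM and thus exceeded Ndrg3 by 5.76 in library 3 and by 6.23 to 6.33 elsewhere on the log2(FPKM + 1) scale. Ndrg1 was at 5.47, 8.66, 9.05, 4.99 and 5.03 FPKM and Ndrg4 at 8.56 and 8.78 FPKM in libraries 2 and 3 against 1.49 to 4.42 elsewhere. Ndrg3 was above its mean in these libraries by 0.08 and 0.04 on the log2(FPKM + 1) scale, but under median-of-ratios scaling its deviations there were -0.01 and -0.04 and it was highest in library 4.

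Slc7a1 encodes CAT1, the widely expressed transporter of arginine and lysine, whose repression by miR-122 in liver cells is a textbook case. It (ENSMUSG00000041313, chromosome 5, 148327410 to 148399904, minus strand) was at 0.954, 1.10, 1.504, 0.567 and 0.959 FPKM, a mean of 1.02 ± 0.337 (SD, n = 5). Library 3 was highest and library 4 lowest, a ratio of 2.65, and both stayed so under median-of-ratios scaling (1.41 and 0.632 FPKM). The gene had 157, 146, 180, 97 and 175 reads, a counting error of 8.14% against a CV of 33.1%, the largest of the 8. Its mean was just above the minimum of 1 FPKM for the tests, and it was not tested without library 2 or without library 3.

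Slc7a2, which encodes the related transporter CAT2, was the more abundant form in every library, at 7.53, 5.24, 3.79, 6.99 and 6.07 FPKM. It was lowest in library 3, where Slc7a1 was highest, so the difference was -0.94 there and between -2.35 and -1.57 elsewhere on the log2(FPKM + 1) scale. With a pseudocount of 0.1 the mean difference was -2.45 in place of -1.77. Of the 12 listed amino acid transporters 10 reached 1 FPKM and 5 were highest in library 3, near the 37.4% of all genes, among them the glutamine transporter Slc1a5 at 24.5 FPKM against 7.64 to 10.2. The shared heavy chain Slc3a2 was at 13.2 ± 1.15 FPKM, and Slc38a2, which takes up small neutral amino acids, at 31.0 FPKM in library 5 against 16.7 to 20.3.

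**Figure D2:**
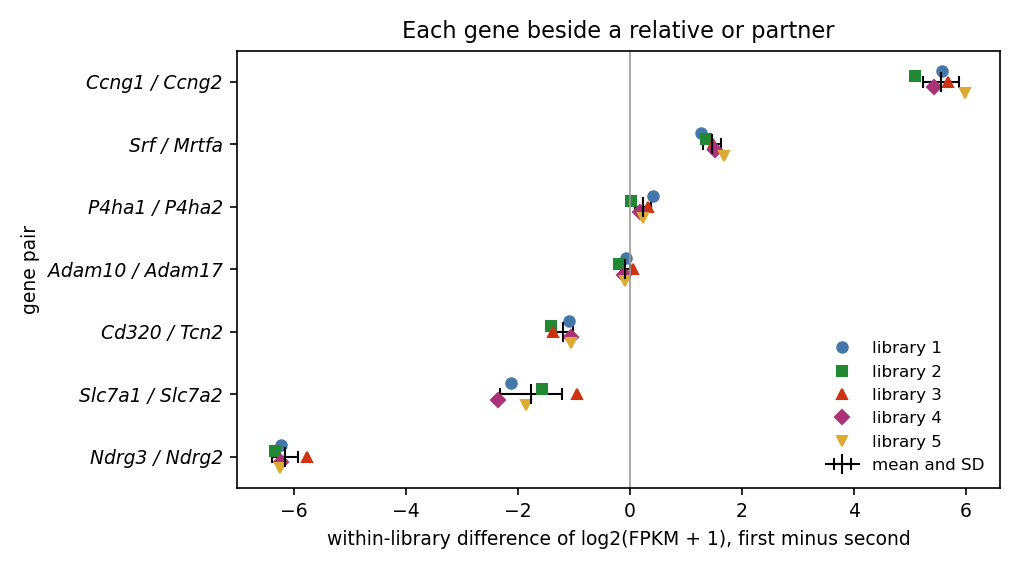
Difference of log2(FPKM + 1) between each gene and a relative or partner within each of the 5 libraries, with the mean and SD. In 6 of 7 pairs all libraries lie on the same side of 0, and for Adam10 and Adam17 library 3 lies on the other side.

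The 6 family pairs with 1 order in every library each had p = 0.0625 in the same exact permutation test, or 0.0729 adjusted over the 7, which again is the lowest possible value.

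The spread of the 8 genes between libraries was not called beyond that of other genes of their level, in a test that passed no gene at all. In a limma test of each gene's variance against the abundance trend of all genes, none of the 8 genes passed (adjusted p 0.990 to 0.996, unadjusted p at least 0.437). The same held for all 10710 genes tested, of which 0 (0%) passed after Benjamini-Hochberg adjustment and 616 (5.75%) had an unadjusted p under 0.05. Even the SRF target Egr1, with a CV of 120%, had an adjusted p of 0.640 in this limma test. The lack of calls among the 8 genes therefore says little about them. A chi-square test of the recovered reads against counting error alone called 7 of the 8 genes, all but Ndrg3, beside 87.9% of all genes tested (9410), so the count of 7 lies near the background. The adjusted p of that test was 1.09e-258 for Ccng1, 0.00190 for Cd320 and 0.178 for Ndrg3, which passed under median-of-ratios scaling (0.00593). Without library 4 Adam17 was no longer called (0.255). The median CV of the 8 genes was 12.4%, against 16.3% for all genes tested, and 6 of the 8 lay below that median.

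**Figure D3:**
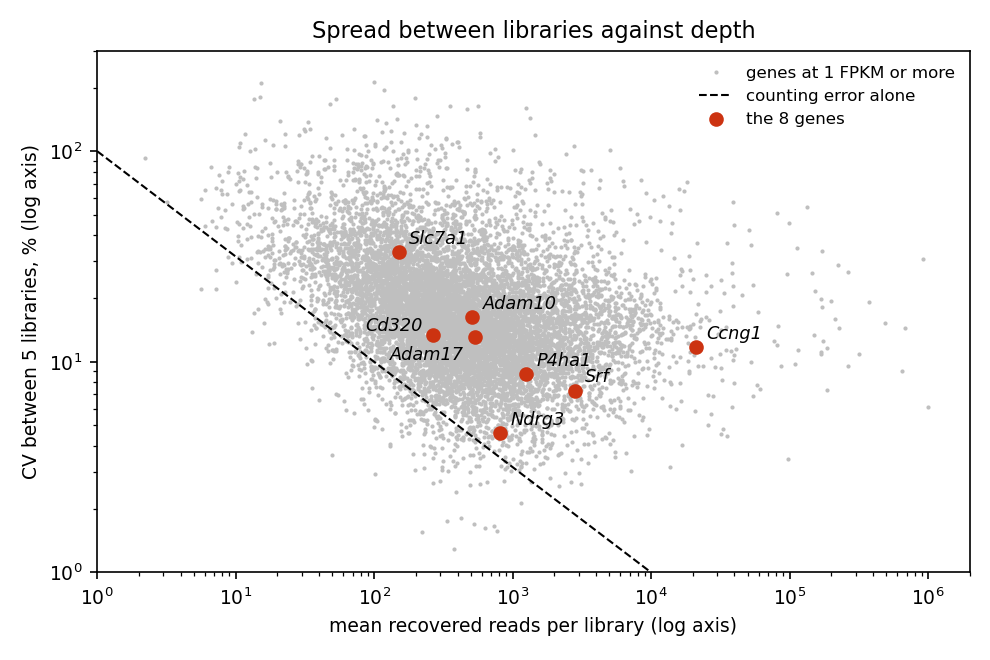
CV between the 5 libraries against mean recovered reads per library, both on log axes, for all genes at 1 FPKM or more (grey) and the 8 genes (red), with the counting error as a dashed line. Ndrg3 lies at 4.58%, near the line, and Ccng1 at 11.8% lies far above it because it has 20942 reads per library on average.

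The 8 genes did not rise and fall together. In FPKM library 3 was highest for Srf, Cd320, Adam10 and Slc7a1, library 2 for Ndrg3 and Adam17, library 1 for P4ha1 and library 5 for Ccng1. Library 4 was lowest for Srf, Adam17, Adam10 and Slc7a1, library 2 for Ccng1, P4ha1 and Cd320 and library 5 for Ndrg3. Of all genes tested 37.4% were highest in library 3 and 38.0% lowest in library 4. Under median-of-ratios scaling 4 genes were highest in library 5 (Ccng1, Srf, P4ha1 and Adam17), 2 in library 3 (Adam10 and Slc7a1) and 2 in library 4 (Ndrg3 and Cd320), whereas the lowest library changed only for Srf and Ndrg3, to library 1.

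**Figure D4:**
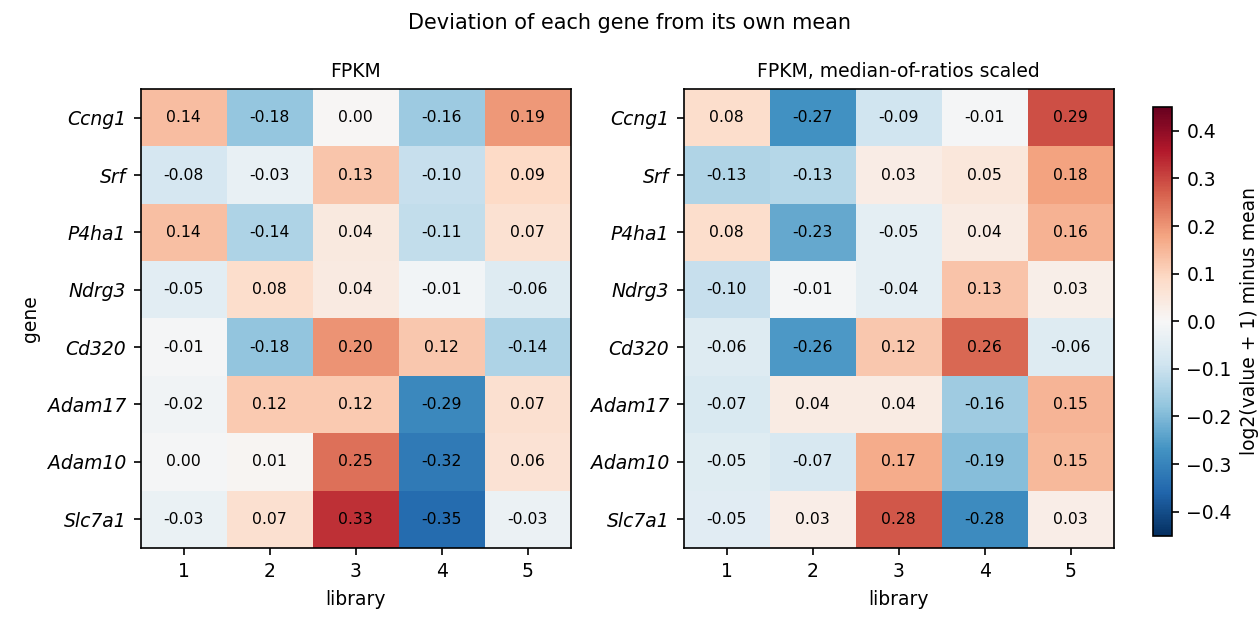
Deviation of log2(value + 1) from each gene's own mean, by gene (rows) and library (columns), for FPKM (left) and for FPKM scaled by median of ratios (right). Adam17, Adam10 and Slc7a1 are lowest in library 4 on both sides, and Ccng1, P4ha1 and Cd320 are lowest in library 2 on both sides.

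Library 3, in which markers of macrophages and regenerating fibres were highest, was set against the mean of the other 4 libraries, a choice made after its values were seen. The ratio was 0.997 for Ccng1, 1.12 for Srf, 1.04 for P4ha1 and Ndrg3, 1.22 for Cd320, 1.12 for Adam17, 1.28 for Adam10 and 1.68 for Slc7a1. The median of the 8 was 1.12, against 1.06 for all genes tested, whose quartiles were 0.902 and 1.28. Only Slc7a1 and, by a narrow margin, Adam10 lay above the upper quartile, and none of the 8 lay below the lower quartile. How far other cells in library 3 contribute to the levels of Slc7a1 and Adam10 was not tested.

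**Figure D5:**
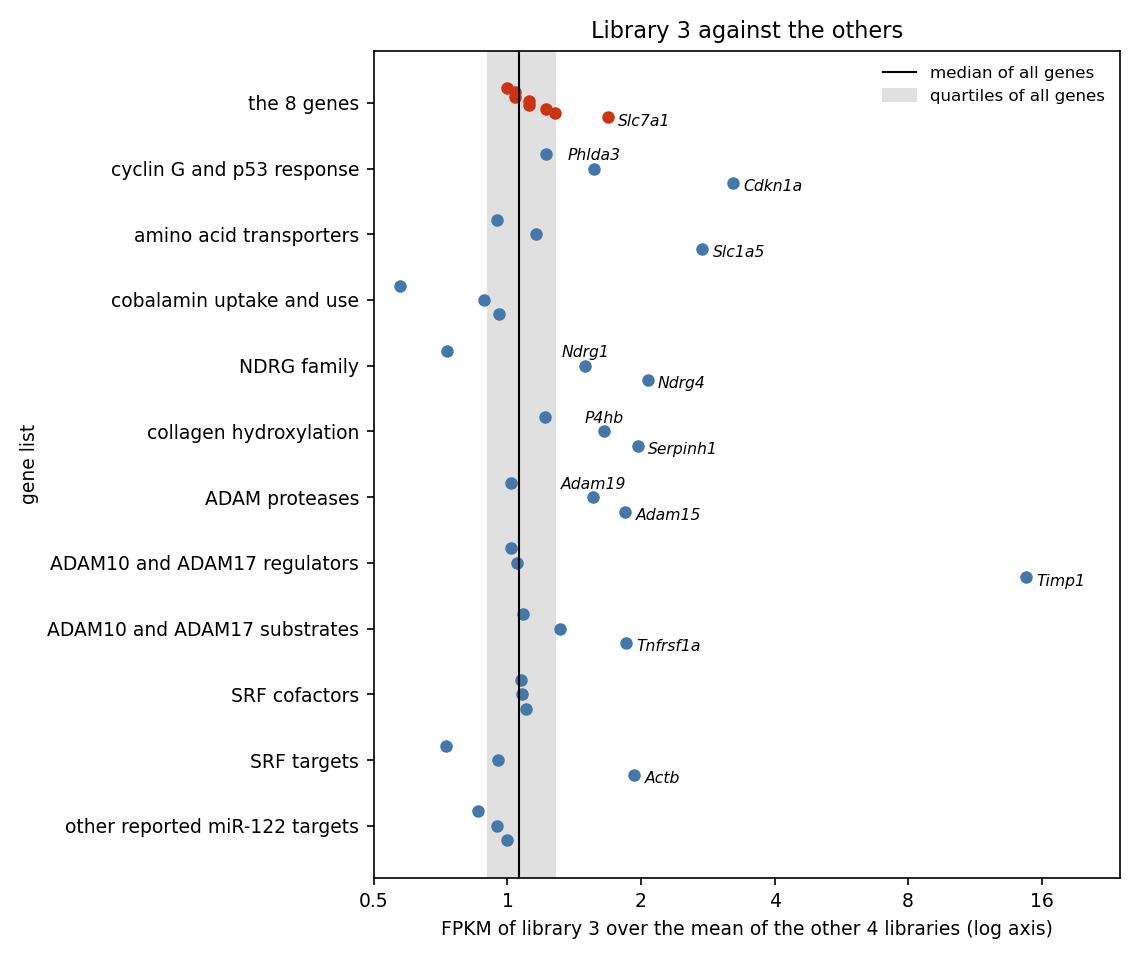
FPKM of library 3 over the mean of the other 4 libraries (log axis) for the 8 genes (red) and for the 3 most abundant genes of each related list (blue), with the median (line) and quartiles (grey band) of all genes tested. The 8 genes lie between 0.997 and 1.68, and the related genes between 0.572 for Mcee and 14.8 for Timp1, which is among the 3 most abundant of its list only through library 3.

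For each of the 8 genes the most similar patterns among genes at 10 FPKM or more were taken as the smallest root mean square difference over the 5 libraries, on the log2(FPKM + 1) scale after each gene's mean was removed. Ccng1 was nearest to Ppp3r1, a calcineurin subunit (difference 0.03, 37.2 ± 4.44 FPKM), and to Desi2 (0.04). Srf was nearest to Bves, a membrane protein of muscle (0.02, 28.4 ± 2.08 FPKM), and Dync1li1 (0.03). P4ha1 was nearest to Metap1 and Isy1 (0.03 each) and Ndrg3 to the nucleic acid binding Cnbp and the muscle kinase Mapk12 (0.02 each). Cd320 was nearest to Tmbim4 (0.03) and Akr1b3 (0.04), Adam17 to the splicing factor Srsf3 and the mitochondrial Dlst (0.03 each), and Adam10 to Anp32e (0.02) and the vesicle transport gene Rab1a (0.03). Slc7a1 was nearest to Hmgcs1, an enzyme of cholesterol synthesis, and Sec31a, a coat protein of secretory vesicles (0.04 each). In FPKM the spread of Slc7a1 was larger for its level, at 1.02 ± 0.337 against 11.2 ± 2.02 for Hmgcs1 and 17.7 ± 3.55 for Sec31a. The pseudocount of 1 shrinks the deviations of a gene near 1 FPKM more than those of the genes compared. The likeness of Slc7a1 to these genes was not tested on another scale. With 3812 or 3813 genes compared over 5 libraries, 116 genes for Ccng1 and up to 633 for the steady Ndrg3 came within 0.1, so these names describe likeness in these libraries only.

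Other reported targets of miR-122, which act in metabolism, spanned a wide range of levels. All 8 genes of that list reached 1 FPKM, from Aldoa down to the AMPK subunit gene Prkab1 at 5.10 ± 0.465 FPKM, which lay near Adam10, and the glycosyltransferase gene Ogt at 13.4 ± 3.07 FPKM, near P4ha1. The glycolytic enzymes Aldoa and Pkm were at 14476 ± 2208 and 2075 ± 204 FPKM and the citrate synthase gene Cs at 316 ± 45.7 (SD, n = 5), and of the 8 genes only Ccng1, at 276 FPKM, came near the last of these. Library 3 stood at 0.947, 1.00 and 0.858 times the mean of the others for Aldoa, Pkm and Cs.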

How the data were processed

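Poly-A selected RNA from about 20 mg of muscle was sequenced by a commercial provider, per the labels' protocols, in 5 samples of 1 group. The submitters' processing notes list the build mm10 and, without roles, HTSeq 0.6.1, STAR 2.5, edgeR, DESeq2 and TopHat. For strand setting and annotation release, the sources used here name none. The authors deposited FPKM values per gene. Their steps gave whole reads within 0.001 of a read for all 20840 genes above 0, at the annotated exon length for 4544 genes (Ccng1 alone of the 8) and otherwise at a length found from the values; recovered reads made up 99.5% of the totals. Of 35275 identifiers, 34490 matched GENCODE M21 (GRCm38, which mm10 also names). 4 older symbols of the lists were matched through RefSeq synonyms.

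Genes averaging at least 1 FPKM entered a limma 3.58.1 fit (R 4.3.3) of log2(FPKM + 1), in which each variance over its abundance trend was compared one-sided with F on 4 and 3.93 degrees of freedom (p-values adjusted by Benjamini and Hochberg's method over all genes; threshold 0.05). The chi-square test compared recovered reads with library totals. Both tests were also run on simulated data, with outcomes not given here. Pairs were tested by exact permutation of signs, two-sided. The 8 genes and all lists were chosen with earlier results of these data known. Named by rule were the 8 genes, their family partners, the 3 most abundant genes of each of 11 pathway lists and the 2 nearest patterns of each gene; other names were picked with their values known. The alternatives were the pseudocount, the filter, library scaling, recovered reads and leaving out each library. Other steps used matplotlib 3.10.9, pandas 2.3.3, scipy 1.17.1 and numpy 2.4.6 under Python 3.11.15.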

Additional observations from a re-analysis of the deposited data

Results flagged for a closer look

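Each of 45 genes and 7 family differences was examined for a library lying far from the other 4 relative to the whole range, a criterion that chance meets in about 1 of 20 groups. None of the 8 genes met it. It was met by 8 of the 52 values (15.4%), 7 of them in library 3. The share of all genes that meet it is not given here, and 37.4% of all genes tested were highest in library 3. Among genes related to P4ha1, P4hb reached 115 FPKM in library 3 and lay between 65.2 and 73.2 in the others, and Serpinh1 at 82.2 against 37.4 to 49.0. Among genes related to Adam10 and Adam17, Timp1 was at 34.4 FPKM in library 3 against 1.62 to 3.42, and Adam15 at 11.6 against 5.44 to 7.03. Timp1 was examined only because library 3 put it among the most abundant of its list. Slc1a5, a transporter listed with Slc7a1, was at 24.5 FPKM in library 3 against 7.64 to 10.2, and Phlda3, listed with Ccng1, at 67.4 against 39.7 to 46.5. Slc38a2 was at 31.0 FPKM in library 5 against 16.7 to 20.3. The log2 difference of Ndrg3 to Ndrg2 was -5.76 in library 3 against -6.33 to -6.23 elsewhere, where Ndrg2 was lowest in library 3 and Ndrg3 close to its mean.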

How the results depend on the processing

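Of 182 alternative values, 176 stayed within the spread between libraries or within 1.5 times the value given, and none changed sign. These values hold the family differences and the number of ordered pairs of the 8 genes, but not the difference of each such pair. The count of genes past the limma test ranged from 0 to 4 with 1 library left out (4 without library 3), and was 0 under each other alternative. None of the 8 genes passed it under any alternative (adjusted p at least 0.952). The chi-square count of the 8 genes was 8 under median-of-ratios scaling and 6 without library 2, 3 or 4; without library 2 or 3 Slc7a1 fell below the filter. Pairs of the 8 genes in 1 order numbered 25 to 27 over the alternatives. In reads, which are not per length, Cd320 lay below Adam17 and Adam10, the difference of Ndrg3 to Ndrg2 was -5.40 and that of P4ha1 to P4ha2 0.65. The order of Cd320 and Adam17 also turned without library 3 and without library 4, and that of Cd320 and Adam10 without library 4. No paired analysis was possible because there is only 1 group. Depth limits Slc7a1 most, at 97 to 180 reads. Which library was highest changed with the scaling for Srf, P4ha1, Ndrg3, Cd320 and Adam17.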

Other observations

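Among the targets of SRF Egr1, Fos and Ccn1 had the largest CVs, at 120%, 116% and 79.7%, and were named after their values were seen. Egr1, a zinc finger factor induced within minutes of a stimulus, was at 6.08, 48.5, 30.1, 1.53 and 1.47 FPKM in libraries 1 to 5, and Fos at 2.61, 40.4, 25.7, 2.67 and 3.17. The matricellular gene Ccn1 was at 11.6, 76.5, 51.9, 18.1 and 17.7 FPKM. These 3 were high in libraries 2 and 3 and low in the others, whereas Srf itself stayed between 29.8 and 35.1 FPKM. Junb, another immediate early gene, had a smaller CV (43.7%) and was at 11.0, 37.8, 30.0, 27.8 and 16.5 FPKM, nearly as high in library 4 as in library 3. In the limma test 6 of the 15 SRF targets (Actc1, Egr1, Fos, Junb, Ccn1 and Ccn2) had an unadjusted p under 0.05 and 0 an adjusted one. Of all 10710 genes tested, 5.75% had an unadjusted p under 0.05. The list was chosen with earlier results of these data known, so the count is a description only.

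Of the 10 listed amino acid transporters at 1 FPKM or more, 5 were highest in library 3 and 2 lowest, against 37.4% and 17.1% of all genes. The lowest there were Slc7a2 and Slc7a6, at 3.79 and 1.82 FPKM. Slc7a5 and Slc7a7, both among the 5, were named after their values were seen. Slc7a5, the leucine transporter LAT1, was at 1.91, 1.79, 6.09, 1.38 and 1.92 FPKM, and Slc7a7, a transporter known from macrophages, at 1.10, 0.882, 2.10, 0.941 and 0.882. The macrophage markers were highest in that library as well, and their part in these levels was not tested.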
